A study of Mus musculus with 29 samples.

Results

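The carboxylesterases described here are 10 genes, Ces1b, Ces1c, Ces1d, Ces1e, Ces1f, Ces1g, Ces2a, Ces2e, Ces3a and Ces3b, taken by name from the 22187 genes of a deposited expression table of mouse liver. RNA was sequenced from tumour and non-tumour liver of C57BL/6 mice given diethylnitrosamine (DEN), a liver carcinogen, 25 mg/kg at an age of 2 weeks and kept on their diet for 18 weeks. Tumours labelled IL17RA-/- and fed alcohol gave 4 libraries, WT tumours on alcohol 3, tumours labelled IL17RA-/- on HFD 3 and WT tumours on HFD 3. Non-tumour liver of the same 4 combinations gave 5, 5, 3 and 3 libraries in that order, so the study holds 29 libraries in 8 groups. IL17RA is a receptor subunit for the cytokine IL-17A, and the labels describe the loss of the gene without naming an allele or a driver. All mice, those on the comparison diet included, had received DEN. The sample labels call the diets HFD and HFD_alcohol, whereas the series text speaks of liquid ethanol or pair feeding, and the sample labels were followed. No label ties a library to an animal, so every p-value measures the spread between these libraries, which may be partly technical, and tumour and non-tumour pieces of 1 animal could not be paired.

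Carboxylesterases are serine hydrolases that cut ester, thioester and amide bonds, mostly in the lumen of the hepatocyte endoplasmic reticulum. In liver they clear ester drugs and pesticides and break down neutral lipids such as triacylglycerol and cholesteryl ester. The mouse genes arose by tandem duplication and lie in a pair of clusters on chromosome 8, in contrast to the few CES genes of humans. Class 1 genes correspond to human CES1, which prefers substrates with a large acyl group. Class 2 genes correspond to human CES2, which prefers a large alcohol group, as in the drug irinotecan.

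In GENCODE M21 (GRCm38) the class 1 members lie on the minus strand of chromosome 8 between Ces1b, which starts at 93056728, and Ces1g, which ends at 93337308. The class 2 and class 3 members lie on the plus strand between Ces2a, at 104734003 to 104741634, and Ces3b, at 105083753 to 105093929. Ces2e lies between them at 104926260 to 104934672. All 10 are annotated as protein coding, with coding lengths of 1662 bases (Ces1c) to 1713 bases (Ces3a and Ces3b). The closest neighbours among the members are Ces1d and Ces1e, 3.38 kb apart.

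Near-identical copies set how far single genes can be read. The coding sequences of Ces3a and Ces3b were 95.3% identical, those of Ces1b and Ces1c 89.1% and those of Ces2a and Ces2e 83.4%. The longest exact stretch that Ces3a and Ces3b share in their coding sequences runs over 194 bases, from base 514 to base 707 of each. That of Ces1b and Ces1c runs over 118 bases, from base 1568 of Ces1b and base 1529 of Ces1c. Both are shown because a read from inside them cannot be given to 1 copy.
Ces3a and Ces3b: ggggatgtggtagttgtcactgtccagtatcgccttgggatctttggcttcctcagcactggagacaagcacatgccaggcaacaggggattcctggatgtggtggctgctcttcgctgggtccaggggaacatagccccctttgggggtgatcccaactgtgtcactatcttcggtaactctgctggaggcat
Ces1b and Ces1c: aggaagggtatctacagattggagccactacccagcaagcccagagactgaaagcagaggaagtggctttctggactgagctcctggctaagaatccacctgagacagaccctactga
Of all 75-base stretches of the Ces3a transcript, 18.3% also occurred in another family gene, and of the Ces3b transcript 15.4%. The share was 6.04% for Ces1c, 4.50% for Ces1b, 1.05% for Ces1e and 0.343% for Ces2e, and 0 for Ces1d, Ces1f, Ces1g and Ces2a. With a tolerance of 0.002 of a count, the estimated counts behind Ces1b, Ces1c, Ces3a and Ces3b were not whole in 28 of 29 libraries, whereas those of the other 6 members were whole in 29 of 29. The sum of Ces1b and Ces1c was whole in 29 of 29 libraries, and so was the sum of Ces3a and Ces3b. Values of these 4 single genes are uncertain for that reason, and pair sums are given for the comparisons of tumour with non-tumour liver. Genotype, diet and interaction values of the 4 genes are given without sums, except where a sum changed the sign.

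Levels are given as CPM, a gene's counts scaled by the total of its library. Recovered depth was 3213696 to 9169116 counts in tumour and 4653422 to 9660584 in non-tumour libraries. A floor of 3 counts was worth 0.311 to 0.934 CPM. Albumin, a defining hepatocyte product, stood at 57201 to 147502 CPM in tumours and 27330.5 to 58784 CPM in non-tumour liver. The libraries labelled IL17RA-/- did not have less Il17ra RNA by the test: the log2 difference from WT was 0.58 in alcohol tumours, 0.91 in HFD tumours, -0.057 in alcohol non-tumour liver and -0.17 in HFD non-tumour liver. The genotype is therefore given as labelled. WT HFD tumour replicate 4 stood apart from the other 12 tumours: it had the highest value of the 13 tumours for 9 of the 10 members and the lowest for Ces2e. Its Alb, at 57201 CPM, and its Gpc3, an oncofetal tumour marker, at 66.3 CPM, were also outside the range of the other tumours, 82429 to 147502 and 86.2 to 401 CPM. Both values lay inside the non-tumour range, as did its Afp, another oncofetal marker, at 108 CPM, which was also inside that of the other tumours. In non-tumour liver Gpc3 ran from 0.919 to 263 CPM with a median of 5.16 CPM. Afp ran there from 0.873 to 155 CPM with a median of 7.52 CPM. Both medians lay far below the Gpc3 and Afp values of WT HFD tumour replicate 4. Its Ces2g, at 73.1 CPM, lay with the other tumours (72.7 to 123 CPM) and above the non-tumour range (28.6 to 49.1 CPM). Whether its tissue label is right was not tested, and the label was kept. Results that rest on it are given with and without it.

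Set against non-tumour liver, tumours had less RNA of 9 carboxylesterases and more of 1, Ces2e. Over both genotypes and diets all 10 members passed the test, limma on log2(CPM + 1) with a Benjamini-Hochberg adjusted p under 0.05 over all genes tested. This count is read against 63.6% of all 13586 tested genes called in the same comparison, 36.6% higher and 27% lower. The 9 falls ranged from -1.58 (Ces1c) to -4.42 (Ces3b) on the log2 scale, and the median over the 10 members was -2.65 against 0.0888 over all tested genes. Ordered from the largest fall, Ces3b was number 16 and Ces3a number 29 of all tested genes, and Ces1c, the smallest of the 9 falls, number 340. The 13 tumour and 16 non-tumour libraries did not overlap for 4 of the falling members, Ces1d, Ces1f, Ces2a and Ces3a, against 3.3% of tested genes, and overlapped for Ces2e, where 2.84% of tested genes were higher with no overlap. WT HFD tumour replicate 4 made the whole overlap: the other 12 tumours all lay below the 16 non-tumour libraries for each of the 9 members and above them for Ces2e. These are bulk tissue samples, in which fewer cells of a type and less RNA per cell cannot be told apart. All 10 calls held under every alternative tried for this comparison.

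**Figure D1:**
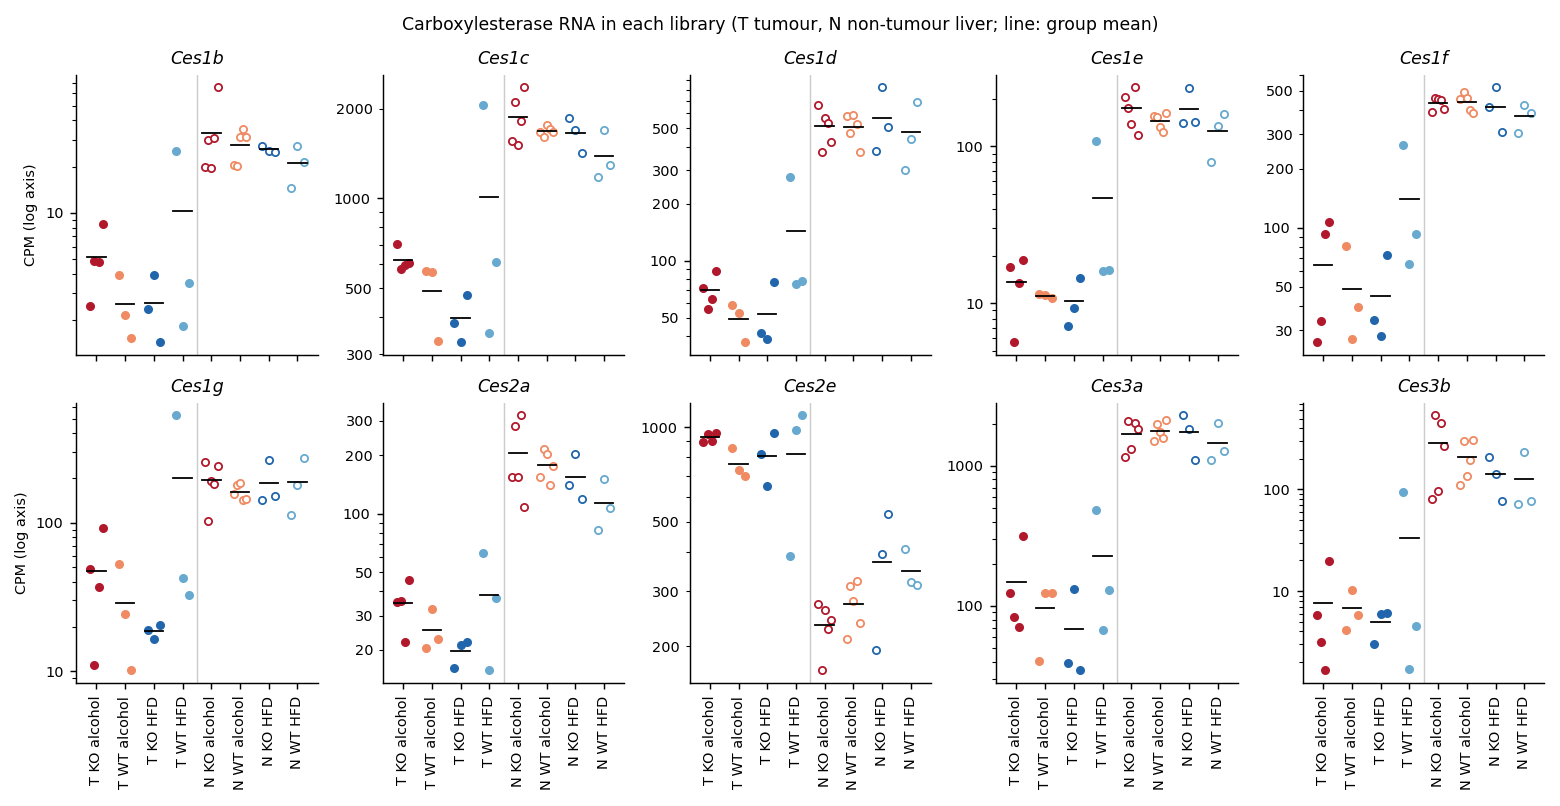
CPM of each member (vertical log axis) in each library, by tissue (T tumour, N non-tumour), genotype label (KO for IL17RA-/-) and diet; points are libraries, filled for tumour and open for non-tumour, and lines are group means. Tumours lie below non-tumour liver for 9 members and above it for Ces2e, except that WT HFD tumour replicate 4 lies inside the non-tumour range for 5 members, as at 2068 CPM for Ces1c, and above it for Ces1g.

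Ces3a (ENSMUSG00000069922, chr8:105048601-105058413) and Ces3b (ENSMUSG00000062181, chr8:105083753-105093929), liver esterases of class 3 whose natural substrates are little studied, fell most. Ces3a stood at 124, 82.9, 70.9 and 314 CPM in alcohol tumours labelled IL17RA-/-, 40.8, 124 and 125 CPM in WT alcohol tumours, 39.4, 132 and 34.8 CPM in HFD tumours labelled IL17RA-/- and 483, 66.9 and 131 CPM in WT HFD tumours. In non-tumour liver it stood at 1159, 2091, 1326, 2007 and 1838 CPM (labelled IL17RA-/-, alcohol), 1499, 1993, 1749, 1573 and 2117 CPM (WT, alcohol), 2295, 1847 and 1107 CPM (labelled IL17RA-/-, HFD) and 1107, 2006 and 1286 CPM (WT, HFD). The highest tumour, WT HFD replicate 4, was below the lowest non-tumour library. The log2 difference was -4.01 (SE 0.27, limma adjusted p = 6.20e-12). Ces3b ran from 1.66 to 93.9 CPM with a median of 5.77 CPM in tumours and from 72.1 to 538 CPM with a median of 168 CPM in non-tumour liver, and the only tumour above the lowest non-tumour library was WT HFD replicate 4, at 93.9 CPM. Its log2 difference was -4.42 (SE 0.43, limma adjusted p = 2.43e-09). The sum of both genes, which does not depend on how reads were divided, fell by a log2 difference of -4.06 (limma adjusted p = 8.97e-12).

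Ces1c (ENSMUSG00000057400, chr8:93099015-93131283), in mice a secreted carboxylesterase of the blood plasma, was the most abundant member per length in non-tumour liver and had the smallest fall. It stood at 705, 579, 598 and 605 CPM in alcohol tumours labelled IL17RA-/-, 569, 567 and 332 CPM in WT alcohol tumours, 382, 329 and 475 CPM in HFD tumours labelled IL17RA-/- and 2068, 352 and 611 CPM in WT HFD tumours. In non-tumour liver it stood at 1555, 2113, 1513, 1815 and 2364 CPM (labelled IL17RA-/-, alcohol), 1673, 1609, 1761, 1714 and 1669.9 CPM (WT, alcohol), 1869, 1699 and 1424 CPM (labelled IL17RA-/-, HFD) and 1183, 1700.3 and 1296 CPM (WT, HFD). WT HFD tumour replicate 4 lay among the highest non-tumour libraries, while the other 12 tumours were all below the lowest of them. The log2 difference was -1.58 (SE 0.17, limma adjusted p = 1.04e-08). Ces1b (ENSMUSG00000078964, chr8:93056728-93080017), the neighbouring copy, was far lower, at 1.43 to 25.3 CPM with a median of 3.49 CPM in tumours and 14.4 to 65.8 CPM with a median of 26.3 CPM in non-tumour liver, and its log2 difference was -2.51 (SE 0.25, limma adjusted p = 4.47e-09). Their sum, nearly all of it Ces1c, had a log2 difference of -1.59.

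The 4 other class 1 members include genes with known roles in hepatic lipid and in the endoplasmic reticulum, and none of them shared fractional counts with a copy. Ces1d (ENSMUSG00000056973, chr8:93166068-93197838), a triacylglycerol hydrolase that frees stored lipid for very low density lipoprotein, stood at 71.9, 55.4, 62.8 and 88.7 CPM in alcohol tumours labelled IL17RA-/-, 58.2, 53.2 and 37.1 CPM in WT alcohol tumours, 41.7, 38.7 and 77.2 CPM in HFD tumours labelled IL17RA-/- and 277, 74.98 and 78.0 CPM in WT HFD tumours. Its non-tumour libraries ran from 302 to 825 CPM with a median of 516 CPM, with no overlap, and the log2 difference was -2.89 (SE 0.18, limma adjusted p = 1.65e-12). Ces1f (ENSMUSG00000031725, chr8:93256236-93279747), also a triacylglycerol hydrolase, ran from 26.0 to 262 CPM with a median of 65.3 CPM in tumours and from 302 to 519.6 CPM with a median of 416 CPM in non-tumour liver, again with no overlap. Its log2 difference was -2.79 (SE 0.22, limma adjusted p = 5.90e-11). Ces1e (ENSMUSG00000061959, chr8:93201218-93229619), known as egasyn, holds beta-glucuronidase in the endoplasmic reticulum of mouse liver. It ran from 5.65 to 107 CPM with a median of 13.5 CPM in tumours and from 79.9 to 238 CPM with a median of 149 CPM in non-tumour liver, with a log2 difference of -3.28 (SE 0.22, limma adjusted p = 6.50e-12). WT HFD tumour replicate 4, at 107 CPM, was the only tumour in the non-tumour range, and the next highest tumour had 19.0 CPM.

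Ces1g (ENSMUSG00000057074, chr8:93302369-93337308), whose loss in mice raises liver lipid, was the class 1 member with the widest spread among tumours. It stood at 48.5, 10.97, 37.0 and 92.4 CPM in alcohol tumours labelled IL17RA-/-, 52.4, 24.1 and 10.2 CPM in WT alcohol tumours, 18.8, 16.4 and 20.6 CPM in HFD tumours labelled IL17RA-/- and 529, 42.3 and 32.5 CPM in WT HFD tumours. In non-tumour liver it stood at 257, 103, 191, 181 and 241 CPM (labelled IL17RA-/-, alcohol), 157, 178, 185, 142 and 145 CPM (WT, alcohol), 142, 263 and 151 CPM (labelled IL17RA-/-, HFD) and 112, 180.1 and 272 CPM (WT, HFD). WT HFD tumour replicate 4 exceeded every non-tumour library, whose highest value was 272 CPM, and the 12 other tumours were all below the lowest, 103 CPM. The log2 difference was -2.29 (SE 0.34, limma adjusted p = 2.02e-06).

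The class 2 members moved in opposite directions. Ces2a (ENSMUSG00000055730, chr8:104734003-104741634) stood at 35.4, 35.8, 21.9 and 45.4 CPM in alcohol tumours labelled IL17RA-/-, 20.6, 32.3 and 22.9 CPM in WT alcohol tumours, 16.1, 21.2 and 22.1 CPM in HFD tumours labelled IL17RA-/- and 62.5, 15.7 and 36.8 CPM in WT HFD tumours. Its non-tumour libraries ran from 82.1 to 320.0 CPM with a median of 154 CPM, with no overlap, and its log2 difference was -2.45 (SE 0.18, limma adjusted p = 2.09e-11). Ces2e (ENSMUSG00000031886, chr8:104926260-104934672) stood at 897, 949, 901 and 958 CPM in alcohol tumours labelled IL17RA-/-, 854, 730.1 and 700.4 CPM in WT alcohol tumours, 822, 649 and 956 CPM in HFD tumours labelled IL17RA-/- and 389, 981 and 1089.7 CPM in WT HFD tumours. In non-tumour liver it stood at 273, 168, 262, 227 and 243 CPM (labelled IL17RA-/-, alcohol), 211, 311, 279.9, 324 and 238 CPM (WT, alcohol), 195, 393 and 529 CPM (labelled IL17RA-/-, HFD) and 409, 321 and 313 CPM (WT, HFD). Of 13 tumours, 12 were above every non-tumour library, and WT HFD replicate 4 lay within the non-tumour range. The log2 difference was 1.45 (SE 0.14, limma adjusted p = 2.87e-09), and the tumour median was 3.25-fold the non-tumour median.

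The sequences just before the starts of Ces2a and Ces2e are shown because these 2 members of 1 class moved apart. Ces2b, Ces2c and Ces2d-ps lie between them. RefSeq (GRCm38.p6) promoters were listed for 7 of the 10 members, and not for Ces1d, Ces1f and Ces3a. Each line gives the 250 bases before the gene's start on the plus strand, at chr8:104733753-104734002 for Ces2a and chr8:104926010-104926259 for Ces2e. Capitals mark exact stretches of 12 or more bases, on the same strand, that both hold.
Ces2a: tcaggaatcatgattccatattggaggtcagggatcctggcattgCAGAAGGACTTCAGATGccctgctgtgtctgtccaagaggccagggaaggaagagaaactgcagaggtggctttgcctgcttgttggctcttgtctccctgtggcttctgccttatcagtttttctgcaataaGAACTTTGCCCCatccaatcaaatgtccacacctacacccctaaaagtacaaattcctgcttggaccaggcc
Ces2e: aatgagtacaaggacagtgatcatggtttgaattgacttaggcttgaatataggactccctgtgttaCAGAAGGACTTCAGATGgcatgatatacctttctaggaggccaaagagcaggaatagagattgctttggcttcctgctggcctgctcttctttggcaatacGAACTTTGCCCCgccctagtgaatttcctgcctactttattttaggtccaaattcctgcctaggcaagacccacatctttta
The promoters shared 2 such stretches, 29 bases in all. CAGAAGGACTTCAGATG began 205 bases before the start of Ces2a and 183 before that of Ces2e, and on either strand it occurred in 2 of 32851 listed promoters. GAACTTTGCCCC began 72 bases before the start of Ces2a and 82 before that of Ces2e, and occurred in 3 of 32851 (0.00913%). Outside them the windows shared no exact stretch of 12 or more bases. Shorter matches were not marked, and the identity of the windows as a whole was not computed. The matches are a description of letters and were not tested as binding sites.

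Of the 10 other genes of the family, 5 were high enough to be tested. Ces2g, which lies after Ces2e in the cluster, rose with no overlap between tumours (72.7 to 123 CPM with a median of 89.7 CPM) and non-tumour liver (28.6 to 49.1 CPM with a median of 35.7 CPM), by a log2 difference of 1.27 (SE 0.081, limma adjusted p = 3.11e-12). Ces2c, which shares reads with the pseudogene Ces2d-ps, ran from 83.9 to 183 CPM with a median of 137 CPM in tumours and from 31.3 to 135 CPM with a median of 74.8 CPM in non-tumour liver, and its log2 difference was 0.82 (SE 0.17, limma adjusted p = 0.000137). Ces2b, at or under 3.93 CPM in all libraries, rose by 0.79 (SE 0.19, limma adjusted p = 0.000818). Ces4a, at or under 3.63 CPM, had a log2 difference of -0.54 (SE 0.18, limma adjusted p = 0.0132). Ces2d-ps did not pass. Within class 2, then, the genes called higher in tumours were Ces2b, Ces2c, Ces2e and Ces2g, and Ces2a was the one called lower.

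Counted per kilobase of transcript, so that genes can be set against each other, the 10 members summed to 545 to 2143 CPM per kb in tumours (median 760.0) and 1812 to 3175 CPM per kb in non-tumour liver (median 2783). The highest tumour sum was that of WT HFD tumour replicate 4, and the other 12 tumours lay below every non-tumour library. Ces2e supplied a median of 43.3% of this sum in tumours and 4.07% in non-tumour liver. In WT HFD tumour replicate 4 its share was 6.73%, and in the other 12 tumours it was 34.7% to 52.3%, above all 16 non-tumour libraries. Ces3a supplied a median of 6.85% in tumours and 29.8% in non-tumour liver, and in all 13 tumours its share was below every non-tumour library. The share of Ces1c was much the same in both, with medians of 35.8% in tumours and 35.0% in non-tumour liver, over overlapping ranges. Shares of 1 sum depend on each other and were not tested.

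**Figure D2:**
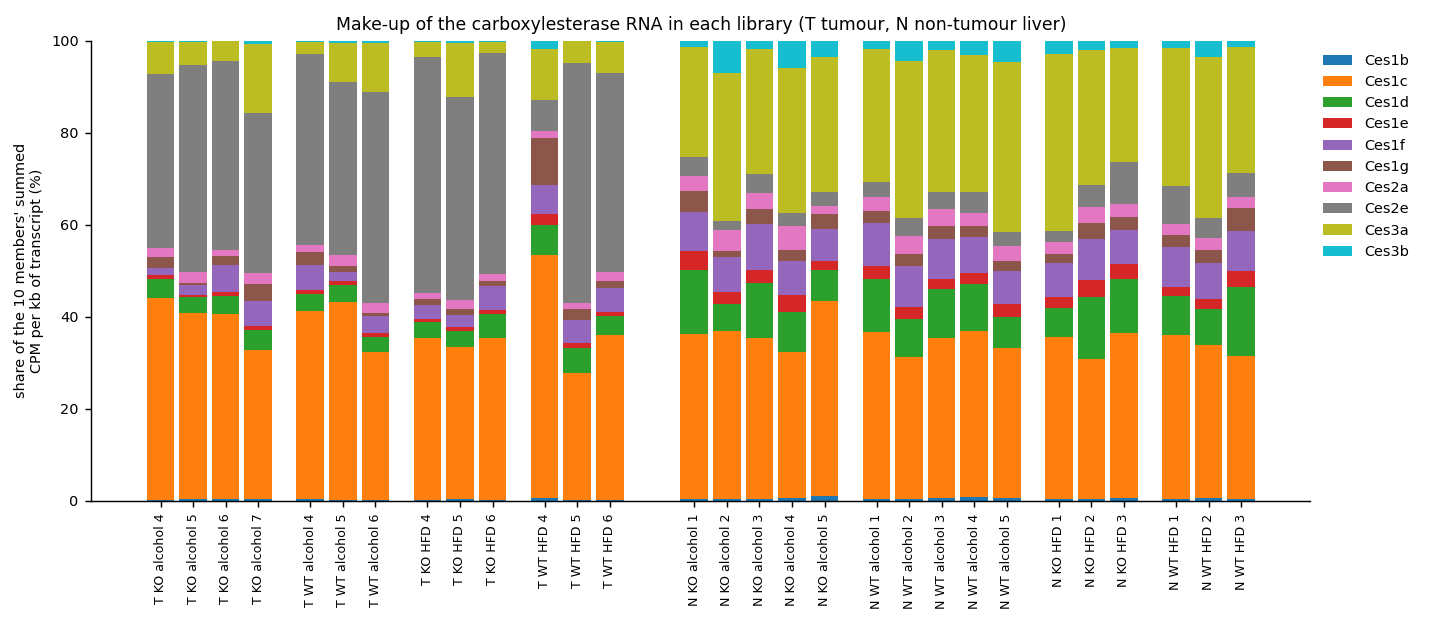
Share (%) of each member in the summed CPM per kb of the 10 members, 1 bar per library, tumours (T) left of non-tumour liver (N). Ces2e (grey) takes a median of 43.3% in tumours and 4.07% in non-tumour liver, Ces3a (olive) a median of 6.85% and 29.8% in the same order, and Ces1g takes 10.3% in WT HFD tumour replicate 4.

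The order of levels also differed. In tumours the means ran Ces1c (344 CPM per kb), Ces2e (310.1), Ces3a (66.5), Ces1d, Ces1f, Ces1g, Ces2a, Ces1e, Ces3b and Ces1b (2.60). The lead of Ces1c over Ces2e there rests on few libraries, since Ces1c was the higher in 3 of 13. In non-tumour liver the means ran Ces1c (922 CPM per kb), Ces3a (825), Ces1d (258), Ces1f, Ces2e (109), Ces2a, Ces3b, Ces1g, Ces1e and Ces1b (14.1). Ces3a exceeded Ces1d in 16 of 16 non-tumour libraries. Among the middle genes the order was not fixed: Ces2a exceeded Ces3b in 8 of 16, Ces3b exceeded Ces1g in 8 of 16 and Ces1g exceeded Ces1e in 9 of 16.

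Taken group by group, the contrast held in 3 of the 4 combinations of genotype and diet for all 10 members. In alcohol livers labelled IL17RA-/-, 9 members fell and Ces2e rose, against 39.9% of tested genes called (18.1% lower, 21.8% higher), and tumours and non-tumour liver did not overlap for any of the 10 (14.5% and 15.1% of tested genes had no overlap with lower and higher tumours). The same 10 calls with no overlap were found in WT alcohol livers, where 35.7% of tested genes were called (19.2% lower, 16.6% higher), 20% were lower and 17% higher with no overlap. They were also found in HFD livers labelled IL17RA-/-, where 40.4% of tested genes were called (16.5% lower, 23.9% higher), 22.3% were lower and 32.4% higher with no overlap. Log2 differences in these 3 combinations ranged from -1.57 (Ces1c) to -5.14 (Ces3b) among the 9 falls, and for Ces2e they were 2.00, 1.49 and 1.21. For the sum of Ces3a and Ces3b they were -3.87, -4.40 and -4.84 in the same order. For the sum of Ces1b and Ces1c they were -1.58, -1.84 and -2.09.

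In WT HFD livers 7 members fell and Ces2e rose, against 15.3% of tested genes called (7.61% lower, 7.64% higher). Ces1c (-0.85, 95% interval -1.58 to -0.11, limma adjusted p = 0.113) and Ces1g (-0.95, 95% interval -2.44 to 0.53, limma adjusted p = 0.414) did not pass. The sum of Ces3a and Ces3b passed (-3.12, limma adjusted p = 0.00119), and that of Ces1b and Ces1c did not (-0.86, limma adjusted p = 0.110). The tumours lay below non-tumour liver with no overlap for Ces1d, Ces1f, Ces2a and Ces3a, against 10.3% of tested genes, and overlapped for Ces2e, where 12.7% of tested genes were higher with no overlap. This group holds WT HFD tumour replicate 4. Without it all 10 members passed, as did 20.4% of tested genes, with log2 differences of -1.57 for Ces1c and -2.22 for Ces1g, and Ces2e stood at 1.58. Leaving out WT HFD tumour replicate 5 instead left 2 members called (with 7.53% of tested genes), and leaving out WT HFD tumour replicate 6 left 4 (14.1%). Leaving out WT HFD non-tumour replicate 2 left 4 (7.81%) and non-tumour replicate 3 left 5 (8.30%). Fitted on these 6 libraries alone, 1 member passed, with 3.26% of tested genes.

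**Figure D3:**
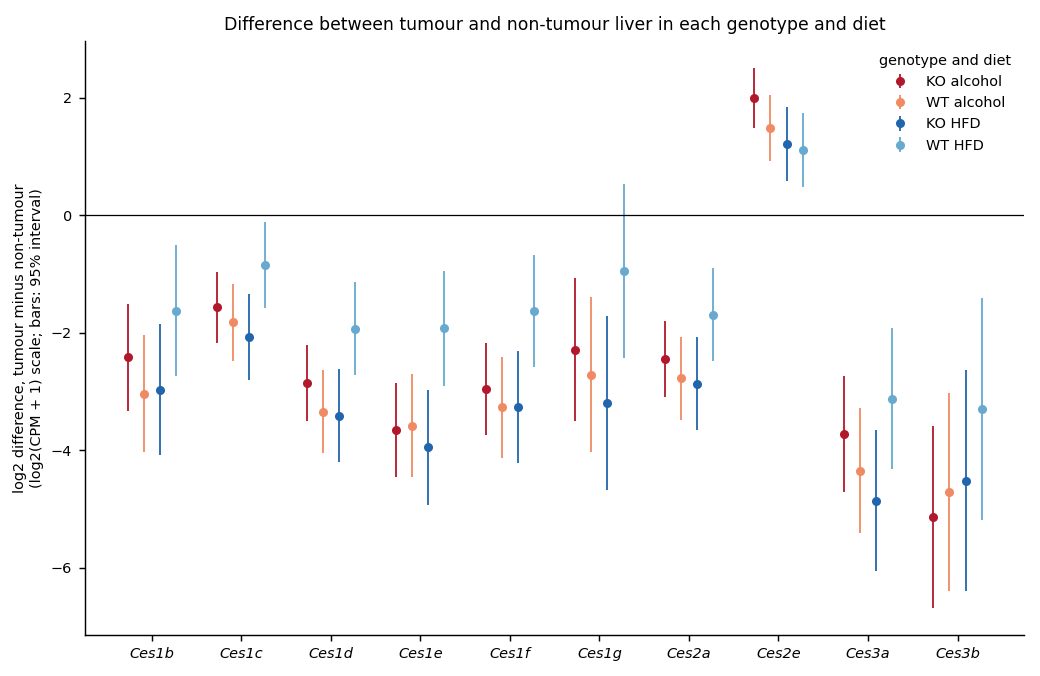
Log2 difference of log2(CPM + 1), tumour minus non-tumour, for each member in the 4 combinations of genotype label and diet (KO for IL17RA-/-), with 95% intervals as bars. The differences are negative for 9 members and positive for Ces2e in every combination, and are closest to 0 in WT HFD livers, where the intervals are -1.58 to -0.11 for Ces1c and -2.44 to 0.53 for Ces1g.

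Whether the contrast between tumour and non-tumour liver depended on genotype or diet was tested with interaction terms over the 29 libraries. No member passed, and neither did any of the 13586 tested genes (0%), by limma. For genotype the terms, IL17RA-/- label minus WT, were -0.36 for Ces1b, -0.49 for Ces1c, -0.49 for Ces1d, -1.05 for Ces1e, -0.66 for Ces1f, -0.91 for Ces1g, -0.42 for Ces2a, 0.31 for Ces2e, -0.56 for Ces3a and -0.82 for Ces3b. The smallest limma adjusted p was 0.484, for Ces1e (95% interval -1.96 to -0.14), which had the only unadjusted p under 0.05. For diet the terms, alcohol minus HFD, were -0.43 for Ces1b, -0.23 for Ces1c, -0.43 for Ces1d, -0.68 for Ces1e, -0.66 for Ces1f, -0.43 for Ces1g, -0.33 for Ces2a, 0.58 for Ces2e, -0.045 for Ces3a and -1.02 for Ces3b. No member had an unadjusted p under 0.05 there, and the interval of Ces2e was -0.0039 to 1.16. Without WT HFD tumour replicate 4 the genotype terms were 0.12 for Ces1b, -0.13 for Ces1c, -0.19 for Ces1d, -0.61 for Ces1e, -0.37 for Ces1f, -0.28 for Ces1g, -0.20 for Ces2a, 0.071 for Ces2e, -0.16 for Ces3a and -0.049 for Ces3b, so that Ces1b changed sign and the others were closer to 0, and 1 gene passed, which was no member. The diet terms without it were 0.048 for Ces1b, 0.12 for Ces1c, -0.12 for Ces1d, -0.23 for Ces1e, -0.37 for Ces1f, 0.20 for Ces1g, -0.11 for Ces2a, 0.35 for Ces2e, 0.35 for Ces3a and -0.25 for Ces3b, so that Ces1b, Ces1c, Ces1g and Ces3a changed sign. Limma-voom on recovered counts also called 0 genes for both terms over all 29 libraries. In the limma fit on log2(CPM + 1) over all 29 libraries, the unadjusted p was under 0.05 for 1266 genes (genotype) and 499 genes (diet).

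Within non-tumour liver, no member passed the test between the genotype labels. On alcohol the log2 differences, labelled IL17RA-/- minus WT, were 0.14 for Ces1b, 0.13 for Ces1c, -0.0030 for Ces1d, 0.23 for Ces1e, -0.015 for Ces1f, 0.21 for Ces1g, 0.094 for Ces2a, -0.22 for Ces2e, -0.11 for Ces3a and 0.19 for Ces3b, and 0 of 12829 tested genes (0%) passed, with 330 at an unadjusted p under 0.05. On HFD they were 0.33 for Ces1b, 0.26 for Ces1c, 0.26 for Ces1d, 0.48 for Ces1e, 0.14 for Ces1f, 0.013 for Ces1g, 0.44 for Ces2a, -0.0065 for Ces2e, 0.24 for Ces3a and 0.27 for Ces3b, and again 0 of 12829 (0%) passed, with 461 at an unadjusted p under 0.05. Limma-voom called 0 genes in both. The genotypes overlapped for all 10 members on both diets, where 0.335% and 0.0857% of tested genes were higher and lower with no overlap on alcohol, and 1.09% and 8.6% on HFD. No member had an unadjusted p under 0.05 in either. The intervals were narrow for Ces1c (-0.17 to 0.43 on alcohol) and Ces1f (-0.29 to 0.26) and wide for Ces3b (-0.92 to 1.31).

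In tumours no member passed the test between genotype labels on either diet. On HFD 9 of 10 members had negative log2 differences, labelled IL17RA-/- minus WT, of -1.02 for Ces1b, -0.97 for Ces1c, -1.22 for Ces1d, -1.54 for Ces1e, -1.49 for Ces1f, -2.23 for Ces1g, -0.73 for Ces2a, -1.5 for Ces3a and -0.95 for Ces3b, against 0.098 for Ces2e. The smallest limma adjusted p was 0.12, for Ces1d, while 1.61% of 13269 tested genes passed (0.603% higher, 1% lower). Unadjusted p-values were under 0.05 for 4 members (Ces1d, Ces1e, Ces1f and Ces1g) and for 2986 of the 13269 tested genes, and the groups did not overlap for Ces1e and Ces1g, which were lower, where 16.5% of tested genes were lower and 8.15% higher with no overlap. These differences moved with WT HFD tumour replicate 4. Without it the values were -0.056 for Ces1b, -0.25 for Ces1c, -0.60 for Ces1d, -0.66 for Ces1e, -0.91 for Ces1f, -0.96 for Ces1g, -0.29 for Ces2a, -0.37 for Ces2e, -0.72 for Ces3a and 0.59 for Ces3b, so that Ces2e and Ces3b changed sign, and 3 of 13211 tested genes passed. Without WT HFD tumour replicate 5, which leaves replicate 4 among 2, Ces1c, Ces1d and Ces2a passed, as did 8.93% of tested genes. On alcohol the differences were 0.76 for Ces1b, 0.38 for Ces1c, 0.49 for Ces1d, 0.16 for Ces1e, 0.29 for Ces1f, 0.63 for Ces1g, 0.42 for Ces2a, 0.29 for Ces2e, 0.51 for Ces3a and -0.22 for Ces3b, and 0 of 13269 tested genes (0%) passed, with 261 at an unadjusted p under 0.05 and 0 called by limma-voom. Ces1c and Ces2e were higher with no overlap in tumours labelled IL17RA-/- there, where 3.29% of tested genes were higher and 0.935% lower in that way, but no member had an unadjusted p under 0.05.

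Between the diets no member passed the test in any of 4 comparisons. In non-tumour liver labelled IL17RA-/- the log2 differences, alcohol minus HFD, were 0.20 for Ces1b, 0.16 for Ces1c, -0.11 for Ces1d, 0.017 for Ces1e, 0.087 for Ces1f, 0.059 for Ces1g, 0.32 for Ces2a, -0.57 for Ces2e, -0.030 for Ces3a and 0.73 for Ces3b. In WT non-tumour liver they were 0.39 for Ces1b, 0.29 for Ces1c, 0.15 for Ces1d, 0.26 for Ces1e, 0.25 for Ces1f, -0.13 for Ces1g, 0.67 for Ces2a, -0.36 for Ces2e, 0.32 for Ces3a and 0.81 for Ces3b. In both, 0 of 12829 tested genes (0%) passed by limma and 0 by limma-voom. By limma 745 genes (labelled IL17RA-/-) and 541 genes (WT) had an unadjusted p under 0.05. The members with an unadjusted p under 0.05 were Ces2e in liver labelled IL17RA-/- (95% interval -1.10 to -0.033) and Ces2a in WT liver (95% interval 0.019 to 1.32), 1 of 10 in each. The Ces2e difference was negative in both genotypes, and alcohol and HFD overlapped for all 10 members in both. Of tested genes 3.53% were higher and 0.39% lower with no overlap in liver labelled IL17RA-/-, and 0.577% and 2.57% in WT liver.

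Among tumours labelled IL17RA-/- all 10 members had positive log2 differences on alcohol, of 0.75 for Ces1b, 0.66 for Ces1c, 0.45 for Ces1d, 0.32 for Ces1e, 0.40 for Ces1f, 0.96 for Ces1g, 0.75 for Ces2a, 0.21 for Ces2e, 1.11 for Ces3a and 0.11 for Ces3b. No member passed (0% of 13269 tested genes by limma, 0 by limma-voom). By limma 293 genes, but no member, had an unadjusted p under 0.05. Ces1c was higher on alcohol with no overlap, where 3.62% of tested genes were higher and 2.78% lower in that way. Among WT tumours 9 of 10 were negative, with -1.03 for Ces1b, -0.68 for Ces1c, -1.26 for Ces1d, -1.39 for Ces1e, -1.39 for Ces1f, -1.90 for Ces1g, -0.41 for Ces2a, 0.023 for Ces2e, -0.91 for Ces3a and -0.61 for Ces3b. The smallest limma adjusted p was 0.21, for Ces1d, 0.00754% of 13269 tested genes passed, and Ces1d and Ces1e were lower with no overlap, where 12.1% of tested genes were lower and 3.16% higher in that way. Both this comparison and that of genotype on HFD set a group against the WT HFD tumours, so they share those 3 libraries, replicate 4 among them. Without replicate 4 the diet differences in WT tumours were -0.065 for Ces1b, 0.034 for Ces1c, -0.64 for Ces1d, -0.50 for Ces1e, -0.81 for Ces1f, -0.63 for Ces1g, 0.038 for Ces2a, -0.45 for Ces2e, -0.12 for Ces3a and 0.93 for Ces3b, so that Ces1c, Ces2a, Ces2e and Ces3b changed sign, and 0 of 13211 tested genes passed by limma.

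**Figure D4:**
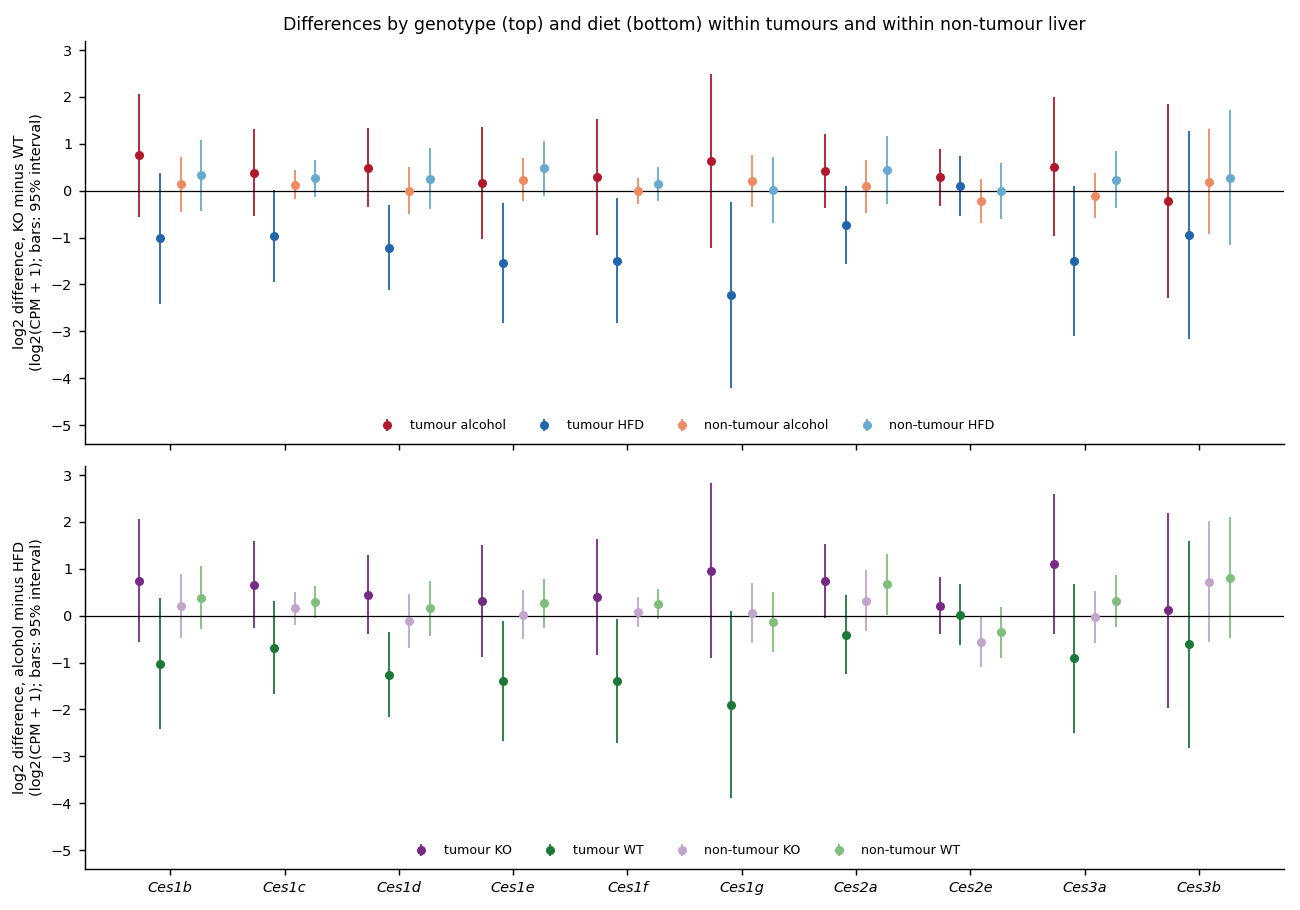
Log2 differences of log2(CPM + 1) by genotype label (top, IL17RA-/-, shown as KO, minus WT) and by diet (bottom, alcohol minus HFD) for each member within tumours and within non-tumour liver, with 95% intervals as bars. The 2 series with mostly negative values, HFD tumours in the top panel and WT tumours in the bottom panel, both contain the WT HFD tumours, and no value passed the adjusted test.

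Variation between libraries of 1 group was larger in tumours than in non-tumour liver for every member over all libraries. The pooled within-group SD of log2(CPM + 1) was 0.67 in tumours and 0.21 in non-tumour liver for Ces1c, 0.91 and 0.21 for Ces1f, 1.37 and 0.46 for Ces1g, and 1.09 and 0.38 for Ces3a, in the same order. Without WT HFD tumour replicate 4 it was larger in tumours for 6 of 10 members. Over all tested genes the median SD was 0.32 in tumours and 0.26 in non-tumour liver. Without that library the tumour SD was 0.34 for Ces1c, 0.36 for Ces1d (below its 0.41 in non-tumour liver) and 0.167 for Ces2e (against 0.38), and for Ces2a (0.44 against 0.47) and Ces3b (0.90 against 0.94) it was also below that in non-tumour liver. It was 0.82 for Ces1f, 0.95 for Ces1g and 0.94 for Ces3a. In non-tumour liver Ces3b varied most, at an SD of 0.94. It stood at 81.3, 538, 97.5, 447 and 268 CPM in the 5 alcohol libraries labelled IL17RA-/-, where replicates 2 and 4 had the highest Ces3b and the highest Ces2a.

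Deviations from group means, which leave out differences between groups, showed how the members vary together. In the 13 tumours all 36 pairs that leave out Ces2e correlated positively, with a median Pearson r of 0.703, and all 9 pairs with Ces2e correlated negatively, with a median of -0.700. That pattern rests on WT HFD tumour replicate 4. In the 12 tumours without WT HFD replicate 4 the medians were 0.331 and 0.182, and 7 of the 9 pairs with Ces2e were positive. There Ces1d, Ces1e and Ces1g correlated at 0.702 (Ces1d with Ces1e), 0.674 (Ces1d with Ces1g) and 0.730 (Ces1e with Ces1g), and Ces2a, Ces3a and Ces3b, at 0.637 to 0.820.

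In the 16 non-tumour libraries Ces1d correlated at 0.802 with Ces1g and at 0.612 with Ces1e, Ces1e at 0.453 with Ces1g, and Ces2a at 0.587 with Ces3a and 0.611 with Ces3b. Ces1b with Ces1c (0.80) and Ces3a with Ces3b (0.912) are the pairs that share reads. Ces1c also correlated at 0.791 with Ces3a, with which it shares no 75-base stretch in this annotation, while Ces2e correlated at -0.651 with Ces3a. Genes of 1 library share its depth and its tissue piece, the sets were picked after their values were seen, and these correlations are given as a description.

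**Figure D5:**
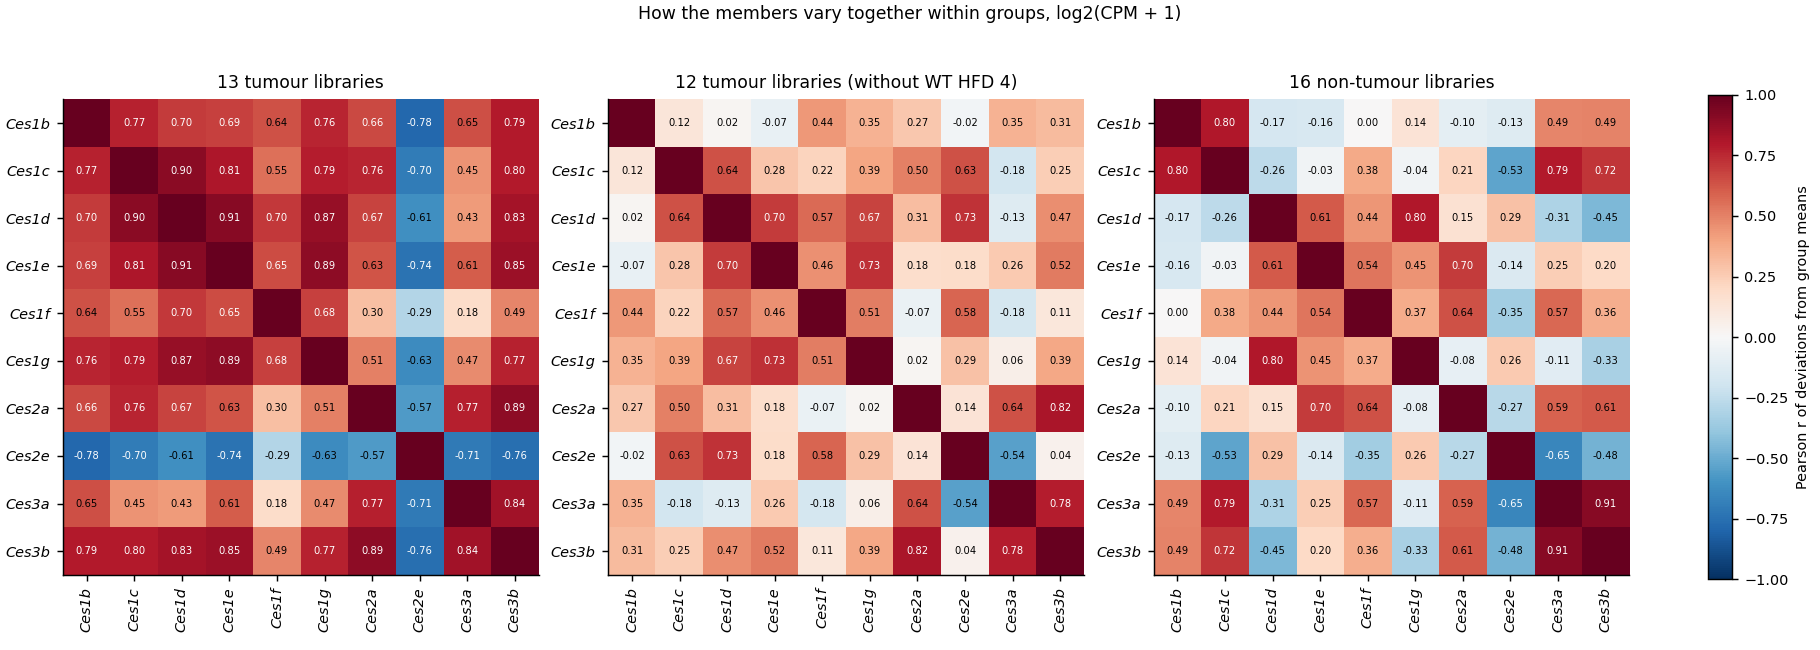
Pearson r between members of deviations of log2(CPM + 1) from group means, in the 13 tumours (left), the 12 tumours without WT HFD replicate 4 (middle) and the 16 non-tumour libraries (right); the colour scale runs from -1 to 1. The negative row of Ces2e in the left panel, with a median of -0.700, is not present in the middle panel, where its median is 0.182.

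Outside the family, the genes whose level ran most closely with the members were found by correlation with the mean z-score of the 10 members (Ces2e included with its own sign) among the 10188 genes averaging at least 5 CPM. Over all 29 libraries these were C2cd2 (r = 0.988), Cat, which encodes catalase (0.985), Gsta3 (0.982), Cmbl (0.981) and Mgst1 (0.980). These r values span both tissues, so they include the difference between tumour and non-tumour liver. Cat, for instance, stood at 660.3 to 2289 CPM in tumours and 2079.9 to 3482 CPM in non-tumour liver. By deviations from group means the closest were Rdh7 (r = 0.903), Dpys (0.895), Cyp2f2 (0.893), Fxyd1 (0.890) and Akr1d1 (0.889). Without WT HFD tumour replicate 4 these 5 gave 0.791 (Rdh7), 0.700 (Dpys), 0.657 (Cyp2f2), 0.690 (Fxyd1) and 0.726 (Akr1d1) and ranked number 5, 30, 54, 33 and 23 in that order, so which genes come closest rests on that library.

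Other genes linked to lipid breakdown, not all of which act mainly on the neutral lipid that several class 1 members cut, mostly fell, though some rose. The list holds hydrolases and 3 genes that are not: G0s2 (a lipase inhibitor), Abhd5 (a lipase activator) and Mttp (a lipid transfer protein). Of its 17 tested genes in the averaged comparison of tissues, 12 fell, G0s2 among them, and 3 rose, Abhd5 among them, with a median log2 difference of -0.70. Counts for this list and the next ones are read against 27% of all tested genes called lower and 36.6% called higher in that comparison. The largest falls were those of the secreted lipases Lipg (-3.09, SE 0.21) and Lipc, hepatic lipase (-2.32, SE 0.21). The largest rises were those of Pnpla3, a lipid droplet protein (2.23, SE 0.35), and Lpl, lipoprotein lipase (1.09, SE 0.25). Of 14 nuclear receptors and hepatocyte factors, 8 fell and 1 rose, with a median of -0.37. Nr1i3, which encodes the receptor CAR, an inducer of drug metabolism, fell most (-2.34, SE 0.23), then Nr1h4, the bile acid receptor FXR (-1.27, SE 0.12), and Nfe2l2, which encodes NRF2, rose (0.21, SE 0.0786). Of 16 genes known as targets of PXR, CAR or NRF2, 8 fell, led by Cyp3a11 (-2.94, SE 0.34) and Cyp3a25 (-2.36, SE 0.15). In the same list 5 rose, led by the cystine transporter gene Slc7a11 (3.47, SE 0.64) and Cyp2b9 (2.34, SE 0.52).

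Cell type markers were counted in the same averaged comparison of tissues, in which 27% of all tested genes were called lower and 36.6% higher. Of 18 hepatocyte markers 8 rose and 6 fell, and their summed level was 145761 to 293829 CPM in tumours and 117678 to 176300.0 CPM in non-tumour liver, over overlapping ranges. Of 14 Kupffer cell markers 12 fell and 0 rose, with sums of 300.1 to 1004 CPM in tumours and 520.1 to 2592 CPM in non-tumour liver. Of 10 sinusoidal endothelial markers 1 rose and 1 fell, with sums of 370.4 to 799.8 and 509 to 785 CPM in tumours and non-tumour liver. Of 10 stellate cell and fibroblast markers 6 rose and 2 fell, with sums of 407 to 1979 CPM in tumours and 350.3 to 1148 CPM in non-tumour liver. Of 6 tested cholangiocyte markers 5 rose, with sums of 87.7 to 1665 CPM in tumours and 24.2 to 139 CPM in non-tumour liver, most of it Spp1. T and NK cell markers (1 of 5 rose) and B cell markers (0 of 3 called by limma, and 0 with an unadjusted p under 0.05) summed to no more than 34.5 and 6.22 CPM in any library. Class 2 carboxylesterases are also intestinal genes, and of 4 tested intestine and pancreas markers 3 rose and 1 fell, with sums of 2598 to 8662 CPM in tumours and 283 to 3752 CPM in non-tumour liver. Most of that was Apoa4, which liver also expresses. Fabp2, the marker of this list that fell, ran from 73.1 to 155 CPM in tumours and 69.2 to 206 CPM in non-tumour liver. Cela1, which rose, ran from 11.8 to 35.3 CPM in tumours and 5.69 to 23.4 CPM in non-tumour liver. The gut epithelial gene Vil1 was at or under 8.04 CPM, and the pancreatic genes Prss2 and Cel were at 0 in 25 and 22 of 29 libraries. The part of these marker lists in the differences of the members was not tested.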

How the data were processed

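Poly(A) RNA from 29 mouse liver libraries was sequenced after stranded library preparation (per the labels' protocols). The submitters' processing notes list GRCm38 as the build and, as tools, RSEM 1.3.0 and STAR 2.5.1a. The deposited table holds CPM, scaled by the authors to the same total in each library, for 22187 Ensembl genes, of which 21653 had a symbol. Steps in the CPM gave back each library's depth and expected counts, of which 83.4% to 86.2% were whole within 0.002; 3 counts were taken as the floor, which covers counting error only. CPM were tested as log2(CPM + 1) with limma 3.58.1 in R 4.3.3, keeping genes that reached 1 CPM in 3 or more libraries, with Benjamini-Hochberg adjustment over all genes tested and a threshold of 0.05. Fold changes on this scale understate changes of low genes. Tissue comparisons and interactions were fitted over all 29 libraries, genotype and diet comparisons within 1 tissue. Levels per kb used 1 principal GENCODE M21 transcript per gene. All 10 members are reported in every comparison. The members, gene lists and tests were chosen with earlier results of these data known. Alternatives were pseudocount 0.1, no filter, rescaling, limma-voom, other sets of libraries, single libraries left out, a replicate block and, added after seeing the data, sums of near-identical copies. Between diets, same-numbered libraries deviated together in every pair in WT non-tumour liver (r = 0.352, 0.274 and 0.138). In tumours labelled IL17RA-/- these r values were positive but small (0.017, 0.045 and 0.106). They were negative in non-tumour liver labelled IL17RA-/- (-0.145, -0.042 and -0.122) and of mixed sign in WT tumours (0.020, 0.232 and -0.024). The labels state no pairing. The fits were also run on simulated counts, with the same spread setting for every gene and no outlying library. That run does not cover results that rest on 1 library.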

Additional observations from a re-analysis of the deposited data

Results flagged for a closer look

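No value of a member stood apart within a group of 4 or 5 libraries in 30 checks by Dixon's test at its 95% critical value, and groups of 3 libraries, the WT HFD tumours among them, were not tested.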

How the results depend on the processing

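Over both genotypes and diets, and in the 3 combinations other than WT HFD, the 10 members kept their calls and directions under all alternatives run: pseudocount 0.1, no filter on low values, median-ratio rescaling, fits on the compared groups only, limma-voom on recovered counts, the replicate block, and each left-out library. In WT HFD livers 8 members passed, 1 did when only the compared groups were fitted, and 2 to 10 did as single libraries were left out; Ces1b alone lost its call with no filter (adjusted p = 0.0608) and without alcohol non-tumour replicates 2 and 4 labelled IL17RA-/- (adjusted p = 0.05005). As its sum with Ces1c, which was added after seeing the data, its place was taken by -0.86 (adjusted p = 0.110). Between genotypes in HFD tumours 0 members passed, and 0 to 3 did as single libraries were left out.

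Among all genes, WT HFD livers gave 2072 calls, and 413 when only the compared groups were fitted. Between genotypes HFD tumours gave 213, 37.6% of them higher, against 626 after rescaling (66.5% higher), 62 with the replicate block, 5 with the compared groups only, 2 without 4 libraries that stood apart, and 0 to 1174 as single libraries were left out. Between diets WT tumours gave 1, and 0 to 56 as single libraries were left out, and the genotype interaction 0, and 68 without WT HFD tumour replicate 5. The replicate block moved no count of members called. The cause was not tested. Rescaling moved the median of all genes by over 0.1 between genotypes in HFD non-tumour liver (0.012 in place of -0.12) and between diets in WT tumours (-0.017 in place of -0.17).

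All changes of sign concerned values that did not pass the test. The replicate block gave -0.022 for Ces1e and -0.026 for Ces1f (genotype, alcohol tumours), -0.091 for Ces1b (diet, IL17RA-/- non-tumour), -0.46 for Ces3b (diet, IL17RA-/- tumours). Rescaling gave 0.13 for Ces2e (genotype, HFD non-tumour), -0.057 for Ces1e and -0.015 for Ces1g (diet, IL17RA-/- non-tumour), 0.029 for Ces3a (diet interaction), and limma-voom -0.19 for Ces3b (diet, IL17RA-/- tumours). Pair sums gave -0.062 in place of Ces3b (genotype, alcohol non-tumour), 0.47 in place of Ces3b (genotype, alcohol tumours), 0.063 in place of Ces3a (diet, IL17RA-/- non-tumour). Without alcohol non-tumour replicates 2 and 4 labelled IL17RA-/-, the values were 0.11 for Ces1d, -0.36 for Ces2a and -0.58 for Ces3b (genotype, alcohol non-tumour), 0.0030 for Ces1d, -0.16 for Ces1e, -0.13 for Ces2a and -0.040 for Ces3b (diet, IL17RA-/- non-tumour), 0.062 for Ces3a (diet interaction). Without 4 libraries that stood apart in an earlier look (WT HFD tumour replicate 4, alcohol tumour replicate 5 labelled IL17RA-/-, HFD non-tumour replicate 3 labelled IL17RA-/- and WT HFD non-tumour replicate 1), they were -0.19 for Ces1g (genotype, HFD non-tumour), -0.37 for Ces2e and 0.59 for Ces3b (genotype, HFD tumours), -0.10 for Ces1e, -0.11 for Ces1f and -0.060 for Ces1g (diet, IL17RA-/- non-tumour), -0.14 for Ces1d and -0.028 for Ces1e (diet, WT non-tumour), 0.034 for Ces1c, 0.038 for Ces2a, -0.45 for Ces2e and 0.93 for Ces3b (diet, WT tumours), 0.22 for Ces1b, 0.10 for Ces1g and 0.0090 for Ces3b (genotype interaction), 0.18 for Ces1b, 0.25 for Ces1c, 0.10 for Ces1d, 0.14 for Ces1e, 0.70 for Ces1g, 0.065 for Ces2a, 0.68 for Ces3a and 0.19 for Ces3b (diet interaction).

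As single libraries were left out, values that changed sign ran from -0.079 to 0.35 for Ces1b, -0.36 to 0.19 for Ces1d, -0.11 to 0.26 for Ces1e, -0.11 to 0.27 for Ces1f, -0.10 to 0.34 for Ces1g and -0.33 to 0.20 for Ces3a (diet, IL17RA-/- non-tumour), -0.14 to 0.29 for Ces1b, -0.11 to 0.10 for Ces1d, -0.060 to 0.029 for Ces1f, -0.098 to 0.29 for Ces2a, -0.20 to 0.014 for Ces3a and -0.13 to 0.55 for Ces3b (genotype, alcohol non-tumour), -0.76 to 0.048 for Ces1b, -0.51 to 0.12 for Ces1c, -0.79 to 0.20 for Ces1g and -0.36 to 0.35 for Ces3a (diet interaction), -0.69 to 0.12 for Ces1b (genotype interaction), -1.24 to 0.034 for Ces1c, -0.93 to 0.038 for Ces2a, -0.45 to 0.30 for Ces2e and -1.64 to 0.93 for Ces3b (diet, WT tumours), -0.14 to 0.46 for Ces1d, -0.028 to 0.48 for Ces1e and -0.46 to 0.18 for Ces1g (diet, WT non-tumour), -0.042 to 0.57 for Ces1d, -0.037 to 0.34 for Ces1f, -0.31 to 0.32 for Ces1g, -0.32 to 0.40 for Ces2e and -0.056 to 0.82 for Ces3b (genotype, HFD non-tumour), -0.022 to 0.51 for Ces1e, -0.051 to 0.72 for Ces1f, -0.015 to 0.78 for Ces3a and -0.80 to 0.19 for Ces3b (genotype, alcohol tumours), -0.37 to 0.37 for Ces2e and -1.97 to 0.59 for Ces3b (genotype, HFD tumours), -0.46 to 0.53 for Ces3b (diet, IL17RA-/- tumours). The floor of 3 counts, at most 0.934 CPM, lay below the lowest value of every member, 1.43 CPM for Ces1b.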
